A study of Homo sapiens with 4 samples.

Results

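Secreted antimicrobial proteins were followed in AGS, a widely used epithelial cell line from a human gastric adenocarcinoma, with and without lipopolysaccharide (LPS) of Helicobacter pylori. They comprise the genes CAMP, LCN2, SLPI, PI3, DEFB1, DEFB4A, S100A7, S100A8, S100A9 and LYZ, and a member was every probe set that the platform annotation assigns to 1 gene symbol only, that symbol being one of these 10. The rule gave 12 probe sets for 9 genes, of 54675 probe sets on the array and 41091 tested. DEFB4A had no member, because its probe set 207356_at is assigned to the gene copies DEFB4B and DEFB4A together. The 4 arrays were 2 of untreated cells, given fresh medium, and 2 of cells given medium with 10 µg/ml H. pylori LPS. RNA was taken from both groups after 8 h. No genetic change was named for either group, and all arrays came from 1 cell line. Per the series' design text, the experiment was done 2 times independently.

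Epithelia secrete small proteins that kill bacteria or starve them of nutrients, and several are induced when receptors for bacterial products activate NF-kB and C/EBP transcription factors. Cathelicidin (CAMP) and the beta-defensins (DEFB1, DEFB4A) are cationic peptides that damage bacterial membranes. SLPI and elafin (PI3) share the whey acidic protein fold and inhibit neutrophil elastase. Lipocalin 2 (LCN2) binds bacterial siderophores and so withholds iron, the S100A8 and S100A9 pair (calprotectin) withholds manganese and zinc, psoriasin (S100A7) withholds zinc, and lysozyme (LYZ) cleaves peptidoglycan. Lysozyme, lipocalin 2 and SLPI are made in gastric glands, whereas S100A8 and S100A9 are abundant in neutrophils and S100A7 in squamous epithelium.

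RefSeq upstream windows (GRCh38.p14) were held for 5 of the 9 measured genes, namely CAMP, LCN2, S100A7, S100A8 and S100A9. The 250 bases before the start are shown for CAMP, LCN2 and S100A7, 3 members whose treated arrays both lay above both untreated arrays, and for S100A9, whose difference was 0. The stretches lie at chr3:48223245-48223494 on the + strand for CAMP, chr9:128149203-128149452 on the + strand for LCN2, chr1:153460652-153460901 on the - strand for S100A7 and chr1:153357604-153357853 on the + strand for S100A9. All are immediately upstream of the annotated transcript start and are written 5′ to 3′ on the gene's strand. Capitals mark matches, on either strand, to a loose form of the NF-kB site: GGG, any 5 bases, then CC.
LCN2: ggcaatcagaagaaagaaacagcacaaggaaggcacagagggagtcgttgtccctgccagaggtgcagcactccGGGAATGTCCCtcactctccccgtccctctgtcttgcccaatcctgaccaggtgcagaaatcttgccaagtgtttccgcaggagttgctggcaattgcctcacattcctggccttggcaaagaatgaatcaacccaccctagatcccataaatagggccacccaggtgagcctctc
CAMP: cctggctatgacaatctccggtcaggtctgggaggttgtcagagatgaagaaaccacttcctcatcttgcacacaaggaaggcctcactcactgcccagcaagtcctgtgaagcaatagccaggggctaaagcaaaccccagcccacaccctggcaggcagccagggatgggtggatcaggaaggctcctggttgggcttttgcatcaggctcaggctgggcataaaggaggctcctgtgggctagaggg
S100A7: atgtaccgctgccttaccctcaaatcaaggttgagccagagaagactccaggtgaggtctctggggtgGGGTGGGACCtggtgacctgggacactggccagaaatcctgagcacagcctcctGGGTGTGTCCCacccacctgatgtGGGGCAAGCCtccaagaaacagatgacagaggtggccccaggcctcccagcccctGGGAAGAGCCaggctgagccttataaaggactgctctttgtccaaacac
S100A9: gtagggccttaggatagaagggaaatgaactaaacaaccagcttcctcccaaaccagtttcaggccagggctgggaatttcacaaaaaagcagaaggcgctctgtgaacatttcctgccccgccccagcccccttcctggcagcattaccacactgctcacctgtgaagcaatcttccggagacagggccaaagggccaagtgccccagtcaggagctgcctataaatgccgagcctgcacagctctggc

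In LCN2 the loose NF-kB pattern was matched on both strands by overlapping stretches that together span the bases from -176 to -166 before the start. S100A7 held several matches, the nearest at -49 to -40, and CAMP and S100A9 held none. S100A8 held overlapping matches from -48 to -38 in the window of 1 of its 3 annotated starts and none in the others. Of all 35116 such windows in the table, 54.4% held at least 1 match on either strand, so the pattern is common. The C/EBP-like pattern TTNNGNAA, in 33.2% of all windows, was found in LCN2, S100A9 and some of the S100A8 windows and not in CAMP or S100A7. TATAAA, in 10.7% of all windows, was found in S100A7, S100A9 and some of the S100A8 windows and not in LCN2 or CAMP. These are matches of letters and were not tested for binding. A link with the LPS differences, by which the printed stretches were picked, was not tested either.

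The arrays were alike in their medians. Their medians over all probe sets ran from 6.31 to 6.36 on the log2 scale, and the median over the 12 member probe sets from 6.62 to 6.70. Precision is limited by there being 2 arrays a group. The arrays numbered 1 and those numbered 2 differed in their control probe sets: the 18S ribosomal RNA controls stood at 10.07 (untreated) and 9.89 (LPS) on the former and at 8.12 and 7.98 on the latter. The poly-A controls stood at 8.17 and 7.72 against 7.23 and 7.16. Whether a number marks one experiment is not stated in the labels. If the arrays of a group are not separate cultures, the p-values measure only the spread between these arrays, which may be technical.

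No antimicrobial probe set passed the test for a difference with LPS. The question put to the data was which of these genes differ in a gastric epithelial line after exposure to purified LPS. With limma, 0 of the 12 probe sets passed an adjusted p of 0.05 in either direction, where 0% of all 41091 tested probe sets passed as higher and 0% as lower. The adjusted p was 1 for each of the 12. At an unadjusted p under 0.05 there were 0 of 12, against 1.19% of all probe sets higher and 1.49% lower. The differences ran from -0.15 to 0.28 on the log2 scale, with a median of 0.09, and 7 lay above 0, 4 below and 1 at exactly 0. Over all probe sets tested the median was 0.01 and 54.8% lay above 0. In 5 of the 12 both treated arrays lay above both untreated arrays, as in 17.3% of all probe sets, and in 3 both lay below, as in 12.4%. In bulk RNA such as this, fewer expressing cells and less RNA per cell cannot be told apart. An exact two-sided permutation test of a single probe set with 2 arrays against 2 cannot give a p under 0.33.

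The members fell into bright and dim probe sets. A probe set was called bright where its mean over the 4 arrays reached the median over all tested probe sets, 6.64 on the log2 scale. By that rule 6 probe sets of 4 genes were bright (SLPI, LCN2, both of LYZ and both of PI3) and 6 of 5 genes were dim (DEFB1, CAMP, S100A9, S100A7 and both of S100A8). Just inside the threshold stood PI3 41469_at at 6.72, and just outside it DEFB1 210397_at at 6.57. As a second reference, the 135 probe sets of olfactory receptors, a family whose transcripts a gastric line should largely lack, had a median of 5.47 and a 95th percentile of 7.24. Only SLPI, LCN2 and LYZ 213975_s_at lay above that percentile, and the other 9 member probe sets lay below it. Brightness depends on the probes as well as on the transcript, so its order is not an order of transcript abundance. Whether the 9 carry signal from their transcripts was not tested, and detection calls were not used here.

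**Figure D1:**
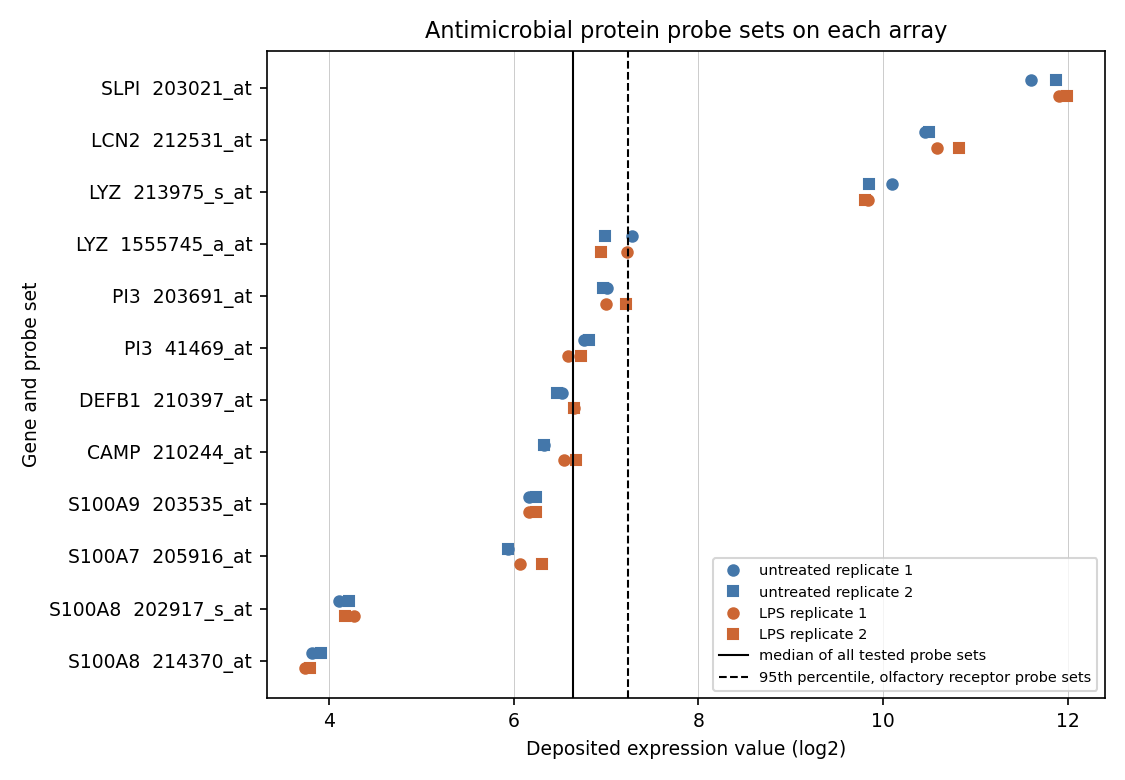
Deposited log2 expression value (horizontal axis) of each antimicrobial protein probe set (vertical axis, ordered by mean) on each of the 4 arrays, with untreated arrays in blue and LPS arrays in orange, circles for replicate 1 and squares for replicate 2. The solid line is the median of all tested probe sets (6.64) and the dashed line the 95th percentile of olfactory receptor probe sets (7.24), and only SLPI, LCN2 and LYZ 213975_s_at lie wholly to the right of the dashed line.

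Among the bright members, SLPI, the secreted inhibitor of neutrophil elastase, was at 11.61 and 11.87 on the untreated arrays and at 11.90 and 11.99 on the LPS arrays. Both treated arrays were above both untreated ones, but the lower treated array exceeded the higher untreated array by only 0.03, against 0.27 between the untreated arrays. The group values were 11.74 ± 0.19 and 11.95 ± 0.06 (SD, n = 2), a difference of 0.21 ± 0.11 (SE) and a fold of 1.15 with a 95% interval of 0.959 to 1.39 (limma, adjusted p = 1). Its mean exceeded that of 97.0% of all tested probe sets. The difference was 0.07 without untreated replicate 1 and 0.34 without untreated replicate 2.

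LCN2, the siderophore-binding lipocalin, was at 10.45 and 10.50 on the untreated arrays and at 10.59 and 10.82 on the LPS arrays. The groups did not overlap, and LPS replicate 2 was the array farthest from the others. Means were 10.48 ± 0.04 and 10.70 ± 0.16 (SD, n = 2), a difference of 0.23 ± 0.11 (SE) and a fold of 1.17 (95% interval 0.971 to 1.41, limma, adjusted p = 1). Leaving out LPS replicate 2 gave a difference of 0.11, and leaving out LPS replicate 1 gave 0.34.

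LYZ, encoding lysozyme, lay below 0 on both of its probe sets. The brighter, 213975_s_at, was at 10.10 and 9.84 on the untreated arrays and at 9.84 and 9.81 on the LPS arrays. The groups barely failed to overlap, the smallest of the 4 differences between a treated and an untreated array being -0.008, and untreated replicate 1 alone stood higher. Means were 9.97 ± 0.18 and 9.82 ± 0.02 (SD, n = 2), a difference of -0.15 ± 0.12 (SE) and a fold of 0.902 (95% interval 0.736 to 1.11, limma, adjusted p = 1). Without untreated replicate 1 the difference was -0.02.

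The second LYZ probe set, 1555745_a_at, was at 7.28 and 6.99 on the untreated arrays and at 7.22 and 6.95 on the LPS arrays. Its values parted by replicate number and not by treatment. The arrays numbered 2 were lower than those numbered 1 by 0.29 in untreated and 0.27 in treated cells, where the LPS differences within a number were -0.06 and -0.04. The fitted difference was -0.05 ± 0.16 (SE). The 18S control probe sets also parted by number, as given above, and their part in the LYZ values was not tested.

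PI3, the elastase inhibitor elafin, was measured by a pair of probe sets that pointed in opposite directions. On 203691_at the untreated arrays were at 7.01 and 6.96 and the LPS arrays at 6.999 and 7.21, so that the groups overlapped and LPS replicate 2 alone stood higher. On 41469_at the untreated arrays were at 6.76 and 6.81 and the LPS arrays at 6.58 and 6.73, both lower. The differences were 0.12 ± 0.13 and -0.13 ± 0.12 (SE), and neither passed (limma, adjusted p = 1). Both probe sets lay below the olfactory receptor percentile. No direction can be given for PI3.

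**Figure D2:**
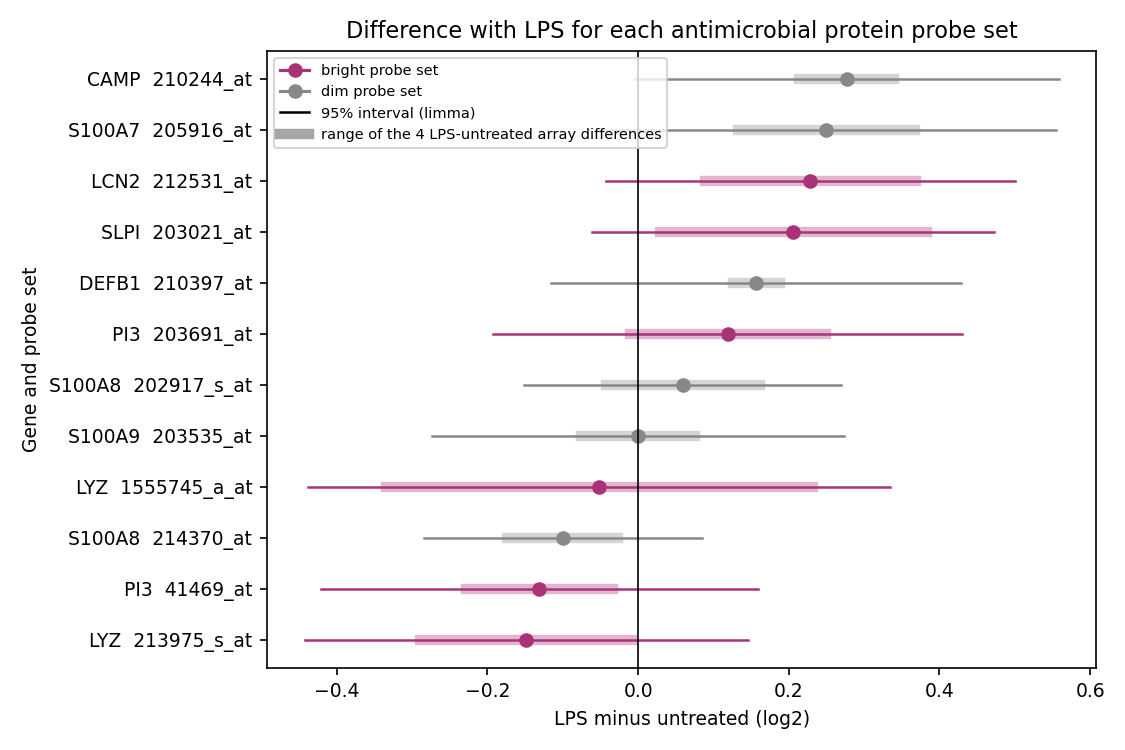
LPS minus untreated on the log2 scale (horizontal axis) for each probe set (vertical axis). Points are group differences, thin lines 95% intervals from limma and thick bands the range of the 4 differences between 1 LPS and 1 untreated array, with bright probe sets in purple and dim ones in grey. Every interval includes 0, and the points run from -0.15 (LYZ 213975_s_at) to 0.28 (CAMP).

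Of the dim members, CAMP, the cathelicidin gene, had the largest difference of the 12 probe sets. Its values were 6.33 on both untreated arrays, and 6.55 and 6.67 on the LPS arrays. The groups did not overlap, and the smallest of the 4 differences between a treated and an untreated array was 0.21. Means were 6.33 ± 0.0009 and 6.61 ± 0.09 (SD, n = 2), a difference of 0.28 ± 0.12 (SE) and a fold of 1.21 (95% interval 0.997 to 1.47). It had an unadjusted p of 0.0525 and an adjusted p of 1 (limma). CAMP lay below the olfactory receptor percentile on all 4 arrays.

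DEFB1, the beta-defensin that epithelia make constitutively, was at 6.52 and 6.47 on the untreated arrays and at 6.65 and 6.66 on the LPS arrays. The treated arrays were both above the untreated ones. The difference was 0.16 ± 0.11 (SE), a fold of 1.12 with a 95% interval of 0.923 to 1.35 (limma, adjusted p = 1). For the inducible beta-defensin, the probe set shared by DEFB4B and DEFB4A stood outside the rule and was not tested. It was at 7.13 and 7.41 on the untreated arrays and at 7.08 and 7.18 on the LPS arrays, which overlapped.

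S100A7, encoding psoriasin, was at 5.94 on both untreated arrays and at 6.07 and 6.30 on the LPS arrays. The groups did not overlap. The untreated values were identical to all 6 deposited decimals, as they were for 0.363% of tested probe sets, so that their SD of 0 does not measure a spread. The difference was 0.25 ± 0.13 (SE), a fold of 1.19 with a 95% interval of 0.963 to 1.47 (limma, adjusted p = 1). Leaving out LPS replicate 2 made it 0.13, and leaving out LPS replicate 1 made it 0.37.

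The calprotectin genes were dim throughout. S100A9 was at 6.16 and 6.24 on the untreated arrays and at 6.17 and 6.24 on the LPS arrays, and its group means were equal, as for 0.2% of tested probe sets. Its 95% interval ran from a fold of 0.828 to 1.21. The S100A8 probe set 202917_s_at was at 4.10 and 4.21 on the untreated arrays and at 4.27 and 4.17 on the LPS arrays, which overlapped. Its other probe set, 214370_at, was at 3.82 and 3.91 on the untreated arrays and at 3.74 and 3.79 on the LPS arrays, both lower. The S100A8 differences were 0.06 ± 0.09 and -0.10 ± 0.08 (SE) and pointed in opposite directions. Both S100A8 probe sets were dimmer than the median olfactory receptor probe set.

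**Figure D3:**
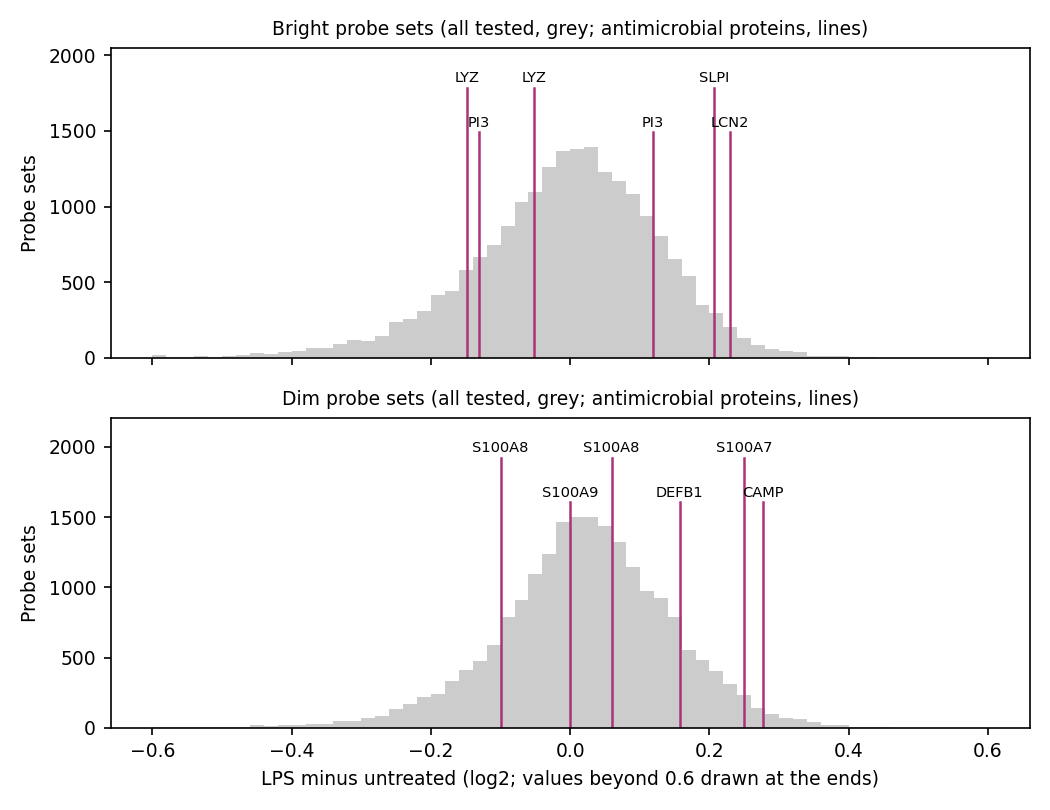
Number of probe sets (vertical axis) by LPS minus untreated on the log2 scale (horizontal axis) for all bright tested probe sets (upper panel) and all dim ones (lower panel), in grey. Purple lines, whose height has no meaning, are the antimicrobial protein probe sets, of which CAMP is farthest to the right among the dim ones and LCN2 among the bright ones.

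Brightness and direction were related on the whole array. Among all bright probe sets 50.9% lay above 0, with a median of 0.003, and among all dim ones 58.8%, with a median of 0.024. Of the bright members 3 of 6 lay above 0, with a median of 0.03. Of the dim members 4 of 6 lay above 0, with a median of 0.11. The median 95% interval reached 0.28 to either side for the members, or a fold of 1.21, and the highest upper bound of the 12 was a fold of 1.47, that of CAMP. For the 9 probe sets below the olfactory receptor percentile these bounds do not limit a change in the transcript, since dim array values are compressed.

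The relatives of the members were read on the brightest probe set of each gene, and 0 genes passed (limma, adjusted p = 1 for every gene named below). Over all 19775 genes the median difference was 0.02 and 56.4% lay above 0. For the 9 member genes the median on this scale was 0.16, with 7 above 0. Of 14 other defensin genes measured, 11 lay above 0, the median was 0.05 and 3 were bright. That median was -0.005 without untreated replicate 1, 0.11 without untreated replicate 2 and 0.12 without LPS replicate 1. DEFB124 differed by 0.20 ± 0.12 (SE) on a probe set ending in _x_at, which can share signal with related sequences, and its values on the untreated arrays were also identical. DEFB108B differed by 0.21 ± 0.10, DEFB121 by 0.12 ± 0.12 and DEFB129 by -0.22 ± 0.15, all 3 of them dim.

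Of 12 other whey acidic protein family genes, relatives of SLPI and PI3, 10 lay above 0 with a median of 0.10 (0.06 without LPS replicate 2), and 3 were bright. WFDC12 differed by 0.15 ± 0.12 (SE), WFDC11 by 0.15 ± 0.13 and WFDC5 by 0.12 ± 0.09. WFDC2, also known as HE4, gave 0.17 ± 0.14 on its brightest probe set by mean, -0.17 on another of nearly the same brightness and 0.17 on a dimmer one. Its probe sets therefore disagreed, like those of PI3.

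The other S100 genes were mostly bright, 10 of 17, and 12 lay above 0 with a median of 0.04, which was 0.11 without LPS replicate 1. S100P, a calcium-binding protein often abundant in gastric tumours, stood at 13.95 ± 0.0023 in untreated and 14.09 ± 0.0089 in LPS-treated cells (SD, n = 2). Its difference of 0.14 ± 0.05 (SE) had an unadjusted p of 0.0395 and did not pass after adjustment. S100A7A, the close relative of S100A7, differed by 0.31 ± 0.14, and by 0.11 on its dimmer probe set. S100A4 went the other way by -0.41 ± 0.18, where the difference was -0.70 for the number 1 arrays and -0.12 for the number 2 arrays. S100Z, which was dim, differed by 0.24 ± 0.09, with an unadjusted p of 0.0314 (limma).

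Of 36 other secreted antimicrobial proteins, 22 lay above 0 with a median of 0.01, and 10 were bright. LTF, the iron-binding lactoferrin, was dim and differed by 0.18 ± 0.11 (SE). REG4, a regenerating-family lectin, was at 7.64 ± 0.01 and 7.47 ± 0.01 (SD, n = 2), a difference of -0.17 ± 0.11. Its other probe sets gave 0.05 and -0.41. The latter had an unadjusted p of 0.011 (limma) and did not pass after adjustment. PGLYRP4, a peptidoglycan recognition protein, differed by -0.20 ± 0.15 and the dim salivary histatin gene HTN1 by -0.19 ± 0.11. The sign of this list's median turned when 1 array was left out, from -0.05 without untreated replicate 1 to 0.07 without LPS replicate 1, and it was -0.012 with arrays centred on their medians and -0.003 with quantile normalization.

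**Figure D4:**
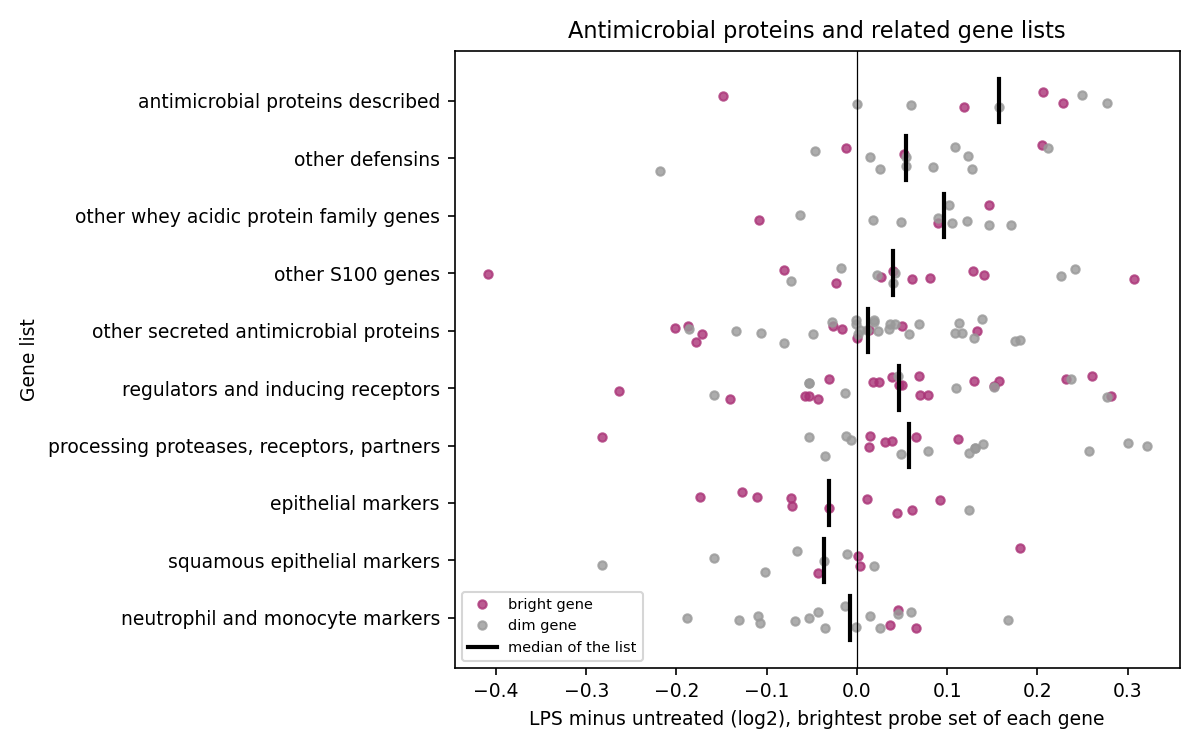
LPS minus untreated on the log2 scale (horizontal axis) for the antimicrobial protein genes and each related list (vertical axis), with 1 point per gene on its brightest probe set, bright genes in purple, dim genes in grey and the list median as a black bar. Medians run from -0.04 (squamous epithelial markers) to 0.16 (the antimicrobial proteins described), and vertical scatter within a list has no meaning.

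Regulators and inducing receptors of epithelial antimicrobial genes lay above 0 in 19 of 29 cases, with a median of 0.05, which was -0.007 without untreated replicate 1 and 0.08 when the other untreated array was left out. STAT3, which carries the interleukin 22 signal to antimicrobial genes, was at 10.42 ± 0.09 and 10.68 ± 0.20 (SD, n = 2), a difference of 0.26 ± 0.13 (SE). That difference was 0.47 for the number 1 arrays and 0.06 for the number 2 arrays. The other STAT3 probe sets gave 0.20, -0.07 and 0.10. EGFR, the epidermal growth factor receptor, differed by 0.23 ± 0.13 on its brightest probe set, where the groups overlapped. That difference was 0.34 for the number 1 arrays and 0.12 for the number 2 arrays, and other EGFR probe sets went as low as -0.09. CEBPE, a C/EBP factor of granulocyte development, differed by 0.28 ± 0.11, with an unadjusted p of 0.0481 (limma). EHF, an epithelial ETS factor, differed by 0.24 ± 0.11, and both were dim. The other EHF probe sets ran from -0.19 to 0.09.

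Proteases that process these proteins, their receptors and their partners lay above 0 in 15 of 20 cases, with a median of 0.06, which leaving out LPS replicate 1 moved to 0.13 and leaving out LPS replicate 2 to 0.02. MMP9 differed by 0.30 ± 0.12 (SE), with an unadjusted p of 0.0388 (limma), and KLK7, an epithelial serine protease, by 0.32 ± 0.13. AGER, the receptor for advanced glycation end products that binds S100 proteins, differed by 0.26 ± 0.12 and the scavenger receptor gene CD36 by 0.14 ± 0.10. All 4 were dim. The other CD36 probe sets ran from -0.17 to 0.05, so that CD36 had no common direction.

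Of the epithelial markers checked against the labelled cell type, 10 of the 11 measured were bright and above the olfactory receptor percentile. The brightest were KRT18 at 14.38, EPCAM at 13.56, KRT8 at 13.43, DSP at 13.28 and KRT19 at 12.50 in untreated cells. Neutrophil and monocyte markers, from cells that hold much CAMP, S100A8, S100A9 and LYZ, were above that percentile in 0 of 18 cases, and their summed log2 level ran from 97.4 to 98.2 on the untreated and from 96.4 to 98.6 on the LPS arrays. Their brightest were AIF1 at 7.04, ITGB2 at 6.87, CTSG at 6.84, CSF3R at 6.57 and AZU1 at 6.11. Squamous markers, relevant to S100A7, were above it in 4 of 11 cases (KRT10, KRT13, SPRR3 and SPRR1A), whereas the basal keratin KRT14 stood at 6.64. For SPRR3 and SPRR1A this held on a probe set ending in _x_at. The other probe sets of these genes, at 5.79 for SPRR3 and 6.18 for SPRR1A in untreated cells, were below that percentile. The values above for KRT18, KRT8, AIF1 and ITGB2 are also from probe sets ending in _x_at. Other probe sets in untreated cells ran from 5.49 to 6.95 for AIF1 and were at 6.06 and 5.08 for ITGB2. The summed level of the squamous markers ran from 77.3 to 77.6 on the untreated and from 76.3 to 77.7 on the LPS arrays. Median differences were -0.03 for epithelial, -0.04 for squamous and -0.01 for neutrophil and monocyte markers. With 1 array left out in turn they ran from -0.08 (without LPS replicate 2) to 0.07 (without LPS replicate 1), from -0.13 (without LPS replicate 2) to -0.02 and from -0.08 (without LPS replicate 2) to 0.01. The epithelial median was also above 0, at 0.05, without untreated replicate 2.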

How the data were processed

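Gene expression was measured on 4 single-channel Affymetrix arrays, 2 per group. The authors deposited log2 expression values per probe set, and MAS5 and RMA appear in the submitters' processing notes, with neither role nor version. The values have the form of RMA output, which compresses differences of dim probe sets. Background and normalization settings are not given in the sources used here. Detection calls were not used here. The deposited log2 values were used as given. Probe sets were named through the platform annotation: 1801 with several symbols, 11777 with none and the 62 control probe sets were not tested, which left 41091.

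The test was limma's (version 3.58.1, R 4.3.3): a linear model per probe set with eBayes and trend = TRUE, LPS minus untreated, no covariate, two-sided, adjusted by the Benjamini-Hochberg method over all 41091 probe sets at 0.05. The 95% intervals are from the same fit. The fit was tested on simulated data with independent noise for each array, which leaves out any deviation shared by arrays of one replicate number. Where a related gene had several probe sets, its brightest by mean was used. All member probe sets are named. The 4 genes of each related list with the largest moderated statistic and the 5 brightest of each marker list are named. The members and lists were chosen with earlier results of these data known, so no list was tested. Alternatives were quantile normalization, centring, a brightness filter, no trend, a replicate block, gene-level summaries, no _x_at or _s_at probe sets, all probe sets tested, and leaving out every array once. Figures used matplotlib 3.10.9.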

Additional observations from a re-analysis of the deposited data

How the results depend on the processing

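Under all 13 alternatives 0 member probe sets passed the adjusted threshold (limma, smallest adjusted p of a member 0.655 to 1), and 0 of all probe sets did in either direction. Arrays with one replicate number deviated together (r = 0.54 across probe sets), but no label ties the number to an experiment. With the replicate number as a block, 0 members passed (smallest adjusted p = 0.655) and 3 of 12 had an unadjusted p under 0.05, against 0 in the main fit, while the share over all probe sets went from 2.68% to 7.32%. With no trend, 1 of 12 members had such a p (limma), as did 2.6% of all probe sets. It was 1 of 9 with the brightest probe set of each gene (2.83% of all) and with gene means (2.36% of all). The median difference of the members, 0.09, was 0.034 with only bright probe sets, 0.16 with the brightest probe set or the mean of the probe sets of each gene, and 0.14 without _x_at and _s_at probe sets, where fewer members entered. It ran from 0.08 to 0.11 with 1 array left out. With only bright probe sets, 3 of 6 members lay above 0 (50.9% of all) and 4 of 6 did not overlap between groups (29.3% of all). With gene means 5 of 9 did not overlap (28.2% of all). The count of bright members fell from 6 to 3 against the median over genes (7.25), both as a threshold and with the brightest probe set of each gene, and to 3 against the olfactory receptor percentile. It was 7 of 10 without _x_at and _s_at probe sets and 8 of 12 with every probe set tested. Averaging probe sets turned PI3 to -0.006 and S100A8 to -0.0202. For LYZ 1555745_a_at, leaving out 1 array gave -0.20 to 0.10. Over the alternatives the ranges were 0.21 to 0.34 for CAMP, 0.11 to 0.34 for LCN2, 0.13 to 0.37 for S100A7, 0.07 to 0.34 for SLPI, 0.13 to 0.18 for DEFB1 and -0.28 to -0.02 for LYZ 213975_s_at. Centring the arrays shifted the median of all probe sets by -0.024 and quantile normalization by -0.008. The share of all probe sets above 0, 54.8% in the main fit, was 46.4% with centring and 52% with quantile normalization. Members above 0 numbered 7 of 12 in each of these settings.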
